A study of Mus musculus with 16 samples.

Results

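The circadian clock genes described here are Per1, Per2, Per3, Arntl (newer symbol Bmal1), Nr1d1, Dbp, Tef, Hlf, Cry2 and Bhlhe40, 10 genes of the 37620 in the count tables. They were chosen by name, with earlier results of these data known, and matched through Ensembl gene identifiers. All 10 were among the 16558 genes that passed the filter on low counts. The mice were CBA/J males, an inbred strain, aged 8 weeks, and RNA came from proximal jejunum, a stretch of the small intestine just past the duodenum. The 16 libraries form 4 groups of 4: methionine adequate diet with 0 Gy, methionine adequate diet with 8.5 Gy of gamma radiation, methionine supplemented diet with 0 Gy, and methionine supplemented diet with 8.5 Gy. Supplementation is given as 300%, and the 6 days named in the design may run from the diet change or from the exposure. The labels used here give no hour of tissue collection and no identity of the mouse behind a library, so p-values measure the spread between libraries.

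The clock is a feedback loop of transcription that runs in nearly every cell, including cells of the gut wall. Arntl pairs with Clock or Npas2 and switches on genes with E-box elements, among them the Per and Cry genes, whose proteins then repress that pair. Nr1d1 (REV-ERB alpha) represses Arntl through ROR elements, Bhlhe40 (DEC1) represses at E-boxes, and Dbp, Tef and Hlf are the PAR bZIP factors that carry the rhythm to other genes through D-boxes. In mouse tissues Arntl and the E-box genes Nr1d1 and Dbp peak at opposite times of day. In the gut the clock is known for timing nutrient uptake and cell division.

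RefSeq promoter windows (build GRCm38.p6, 250 bases before to 50 after a start site) were found for 8 of the 10 genes, and Per2 and Bhlhe40 had none in the table. Motifs were searched on both strands as the E-box CACGTG, the variant E-box CACGTT, the D-box TTATGTAA and the ROR element TAGGTCA, and no match overlapped another. They were in 7.15%, 4.68%, 0.938% and 2.61% of all 32851 windows of that length. The 5 windows shown are examples that each hold at least 1 of these elements, in capitals. Per1 (chr11:69098699-69098998, plus strand) has an E-box beginning 166 bases before the start site, and Tef (chr15:81802423-81802722, plus strand) has an E-box at 127 bases before. Nr1d1 (chr11:98775328-98775627, minus strand) has the variant E-box at 28 bases before. Per3 (chr4:151044616-151044915, minus strand) has 2 D-boxes, at 205 and 158 bases before. Arntl (chr7:113207261-113207560, plus strand) has a ROR element at base 31 after its start site.
Per1: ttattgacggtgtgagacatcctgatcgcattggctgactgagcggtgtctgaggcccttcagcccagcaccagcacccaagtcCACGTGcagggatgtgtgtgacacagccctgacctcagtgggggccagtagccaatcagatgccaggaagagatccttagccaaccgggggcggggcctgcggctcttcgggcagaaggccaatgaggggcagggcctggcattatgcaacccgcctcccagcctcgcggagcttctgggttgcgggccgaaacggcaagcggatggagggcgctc
Tef: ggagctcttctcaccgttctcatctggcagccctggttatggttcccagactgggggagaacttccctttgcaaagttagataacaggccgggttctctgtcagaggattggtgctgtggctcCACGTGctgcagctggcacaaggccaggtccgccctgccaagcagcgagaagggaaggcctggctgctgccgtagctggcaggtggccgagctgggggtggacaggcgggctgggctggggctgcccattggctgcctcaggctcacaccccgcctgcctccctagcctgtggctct
Nr1d1: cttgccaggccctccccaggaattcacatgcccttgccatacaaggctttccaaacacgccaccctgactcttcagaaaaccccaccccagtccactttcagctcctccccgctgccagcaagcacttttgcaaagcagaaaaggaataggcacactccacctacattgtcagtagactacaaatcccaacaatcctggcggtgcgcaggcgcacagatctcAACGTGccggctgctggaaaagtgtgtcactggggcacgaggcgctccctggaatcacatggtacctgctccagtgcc
Per3: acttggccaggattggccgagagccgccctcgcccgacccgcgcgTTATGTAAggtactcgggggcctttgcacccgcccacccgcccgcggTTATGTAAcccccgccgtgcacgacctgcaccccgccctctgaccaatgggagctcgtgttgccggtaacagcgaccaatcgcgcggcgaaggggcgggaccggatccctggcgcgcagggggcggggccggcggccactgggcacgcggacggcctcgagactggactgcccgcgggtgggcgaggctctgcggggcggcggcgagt
Arntl: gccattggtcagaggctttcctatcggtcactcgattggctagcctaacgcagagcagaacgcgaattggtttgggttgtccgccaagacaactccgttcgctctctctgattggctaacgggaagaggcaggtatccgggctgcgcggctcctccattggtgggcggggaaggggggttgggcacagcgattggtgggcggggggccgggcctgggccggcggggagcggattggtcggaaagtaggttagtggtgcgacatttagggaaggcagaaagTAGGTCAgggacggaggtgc
A second Tef window held an E-box at 138 bases before its start site, the Cry2 window held the variant E-box at 166 bases before, and the windows of Dbp and Hlf, a second one of Per1 and another of Arntl held none of the 4 motifs. A match is a run of letters and not a bound site.

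Libraries held 2.57 to 15.51 M (mega) counts, and 3 were under 4 M: unirradiated adequate replicate 1, irradiated adequate replicate 2 and irradiated supplemented replicate 1. The 8 enterocyte markers were detected in every group, with a summed level of 9677 to 44687 counts per M counts (CPM), against at most 1.53 CPM for the 2 ileum markers, 6.13 for the 2 colon markers and 0.0999 for the 2 stomach markers. Car1 of colon and Gkn2 of stomach were at 0 in all 16 libraries. In whole tissue, fewer cells of a type and less RNA per cell cannot be told apart. The strand used in counting is not given in the sources used here. In the GENCODE M21 annotation Nr1d1 overlaps Thra on the other strand by 1075 bases, Dbp overlaps Sphk2 by 737 and Cry2 overlaps D930015M05Rik by 23417, and Per3 overlaps Camta1 on the same strand by 41014, so reads of these pairs may not be fully separated. Thra had 42.8 to 111 CPM and Sphk2 33.2 to 103 CPM over the libraries.

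The unirradiated adequate group held 2 kinds of library. Replicates 1 and 2 were low in Nr1d1 and Dbp and high in Arntl, Per2, Bhlhe40, Hlf and Cry2, and replicates 3 and 4 lay in or near the range of the unirradiated supplemented libraries for these 7 genes. Nr1d1 had 4.98 and 5.39 CPM in replicates 1 and 2 (13 and 61 counts) and 172 and 116 CPM in replicates 3 and 4 (1665 and 1218 counts). Dbp had 9.59 and 9.54 CPM in the first pair and 54.5 and 90.7 CPM in the second. Arntl, the activator at the head of the loop, went the other way, at 31.8 and 29.1 CPM against 13.1 and 9.13 CPM. Within each library, Arntl exceeded Nr1d1 by 2.67 and 2.43 on the log2 scale in replicates 1 and 2, and was below it by -3.71 and -3.67 in replicates 3 and 4. In the other 12 libraries that log2 ratio lay between -4.24 and -2.65, so 2 of 16 libraries had more Arntl than Nr1d1 counts.

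**Figure D1:**
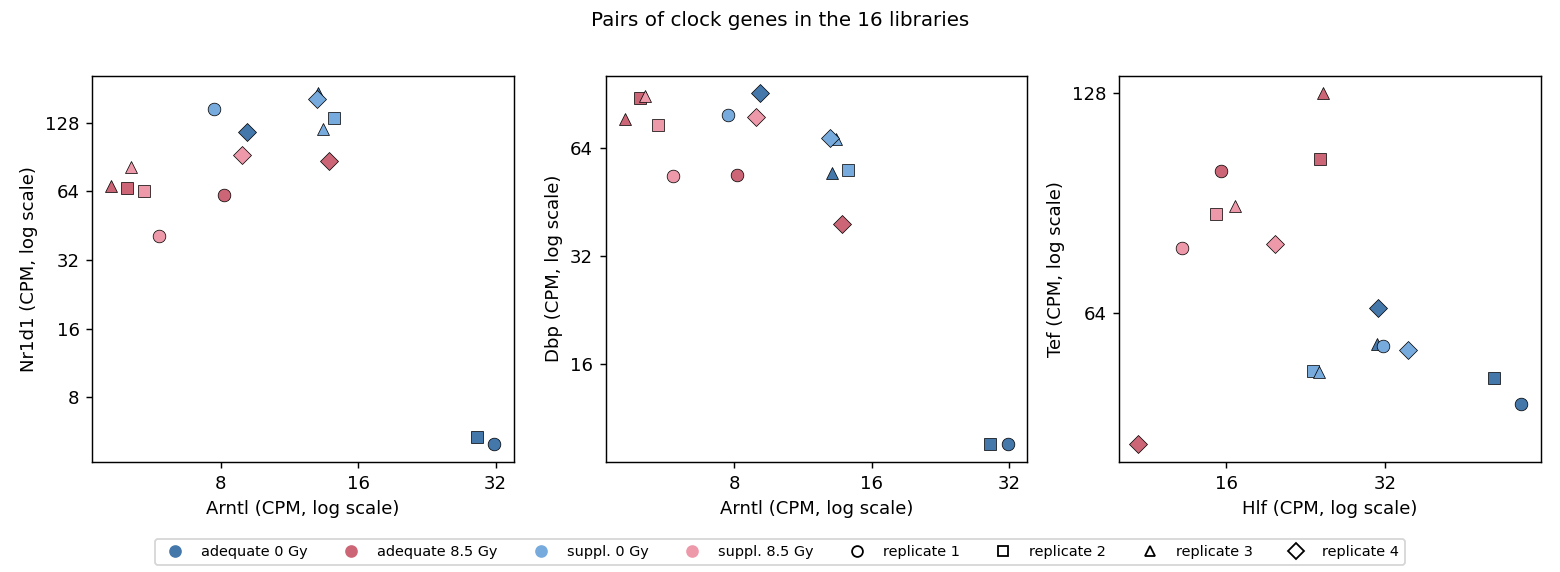
Levels of 2 clock genes against each other in the 16 libraries, in CPM on log axes, with colour for the group and symbol for the replicate. In the plots of Nr1d1 and Dbp against Arntl, unirradiated adequate replicates 1 and 2 stand alone at 29.1 to 31.8 CPM of Arntl. In the plot of Tef against Hlf, 7 of the 8 irradiated libraries lie above the unirradiated ones in Tef.

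Partner genes of the loop, from a list of 18 other clock genes, split the same 2 libraries off. Cry1, a repressor like Cry2, had 34.1 and 31.8 CPM in replicates 1 and 2 and 5.88 and 8.46 CPM in replicates 3 and 4. Nfil3, a repressor at D-boxes, had 15.3 and 10.1 CPM against 1.86 and 2.85 CPM, and Nr1d2, the close relative of Nr1d1, had 26.5 and 21.1 against 74.2 and 85.3 CPM. Clock, whose RNA varies little over the day in most mouse tissues, had 75.2 to 87.4 CPM in the 4 libraries and 64.1 to 95.3 CPM over all 16. Depth was 2.57 M counts in replicate 1 and 10.68 M in replicate 2. Summed enterocyte markers were 32584 and 26895 CPM in replicates 1 and 2 and 26205 and 31617 CPM in replicates 3 and 4, and summed smooth muscle markers were 531 and 772 against 730 and 610 CPM. Over all tested genes the correlation of log2 CPM was 0.953 between replicates 1 and 2. It was lower between replicate 1 and replicates 3 and 4, at 0.941 and 0.944. Among replicates 2, 3 and 4 it was 0.969 to 0.973. Replicate 1 was thus most like replicate 2, while replicate 2 was more like replicates 3 and 4 than like replicate 1. The part of depth and tissue make-up in the split was not tested. A difference in the hour of collection and a difference between libraries cannot be told apart here. Fits with and without replicates 1 and 2 are given for comparisons that use this group, though not for every gene or list.

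**Figure D2:**
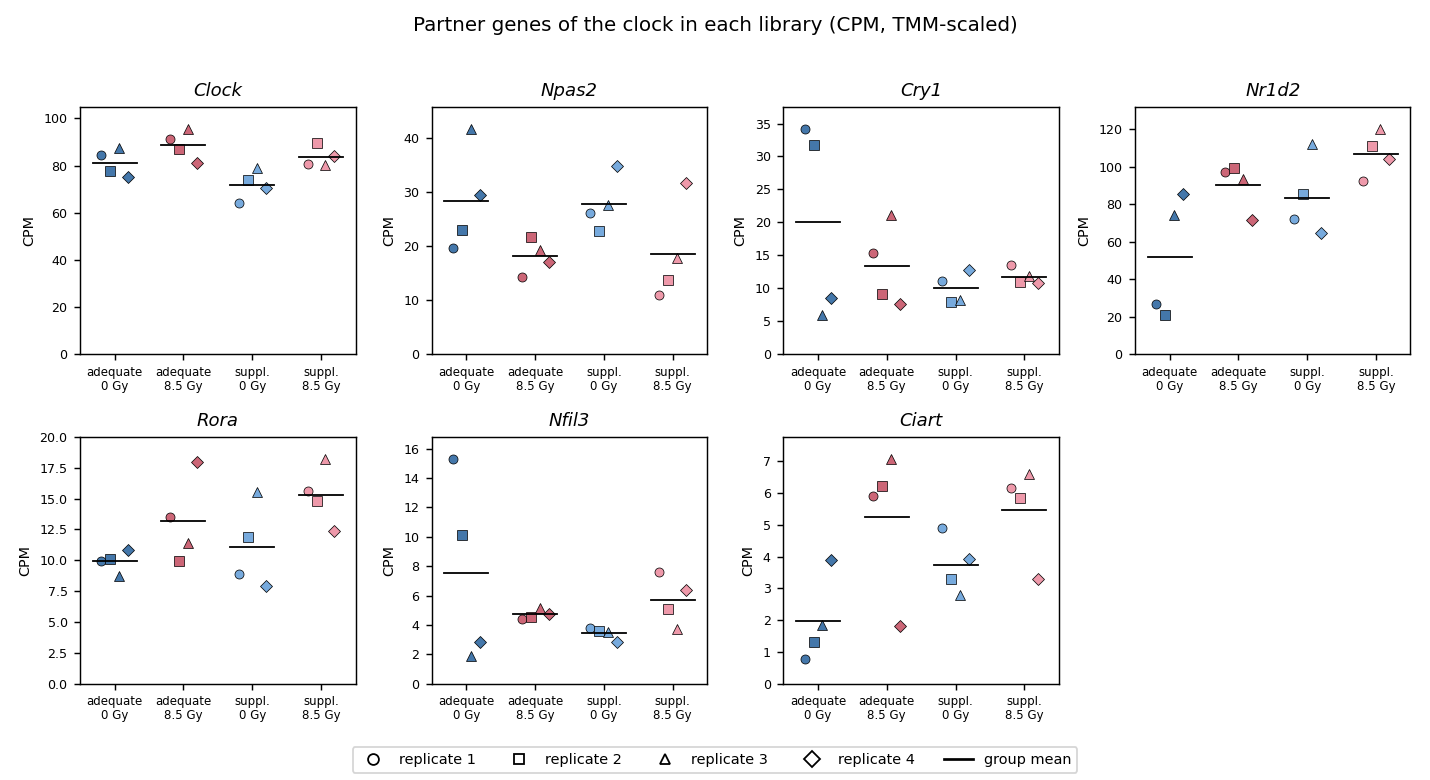
CPM of 7 partner genes of the clock in every library, by group, with symbols for the replicate and a line at the group mean. Cry1 and Nfil3 are high and Nr1d2 is low in unirradiated adequate replicates 1 and 2, while Clock lies between 64.1 and 95.3 CPM throughout.

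Irradiated adequate replicate 4 also stood apart from its group. It had 13 CPM of Cry2 against 38.2 to 44.9 CPM in the other 3 libraries, 42.2 CPM of Tef against 100 to 128 CPM, and 23 CPM of Per3 against 44.6 to 65.2 CPM. Arntl was highest in this library of the group, at 13.8 CPM against 4.61 to 8.13 CPM. Its summed fibroblast markers (1868 CPM against 731 to 1004) and smooth muscle markers (1137 against 616 to 786) were the highest of the group, and its enterocyte markers the lowest (13630 against 19587 to 31175 CPM). The part of tissue make-up in its clock values was not tested. Irradiated supplemented replicate 4 stood apart in make-up, with enterocyte markers at 44687 CPM against 9677 to 18952 CPM in the rest of its group and small nucleolar RNA at 7.73% of counts against 11.1% to 14.1%. Counts were also compared by chi-square per degree of freedom, which sets differences against counting error and grows with depth. It was 72.1 to 76.7 between this library and the other 3, and 16.2 to 20.6 among those 3. This library had the lowest Per1 and the highest Arntl and Bhlhe40 of its group.

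Per kilobase of gene length, the order of the median levels over 16 libraries was Dbp (60.7 CPM per kilobase), Nr1d1 (34.3), Bhlhe40 (29.1), Tef (25), Per1 (13.2), Hlf (9.86), Per3 (9.77), Per2 (8.59), Cry2 (8.22) and Arntl (3.11). The ranges over libraries of every pair of neighbours in that order overlapped. The highest library exceeded the lowest 34.4-fold for Nr1d1, 9.51-fold for Dbp, 7.07-fold for Per2 and 6.91-fold for Arntl, and 2.84-fold for Per3, the steadiest of the 10.

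**Figure D3:**
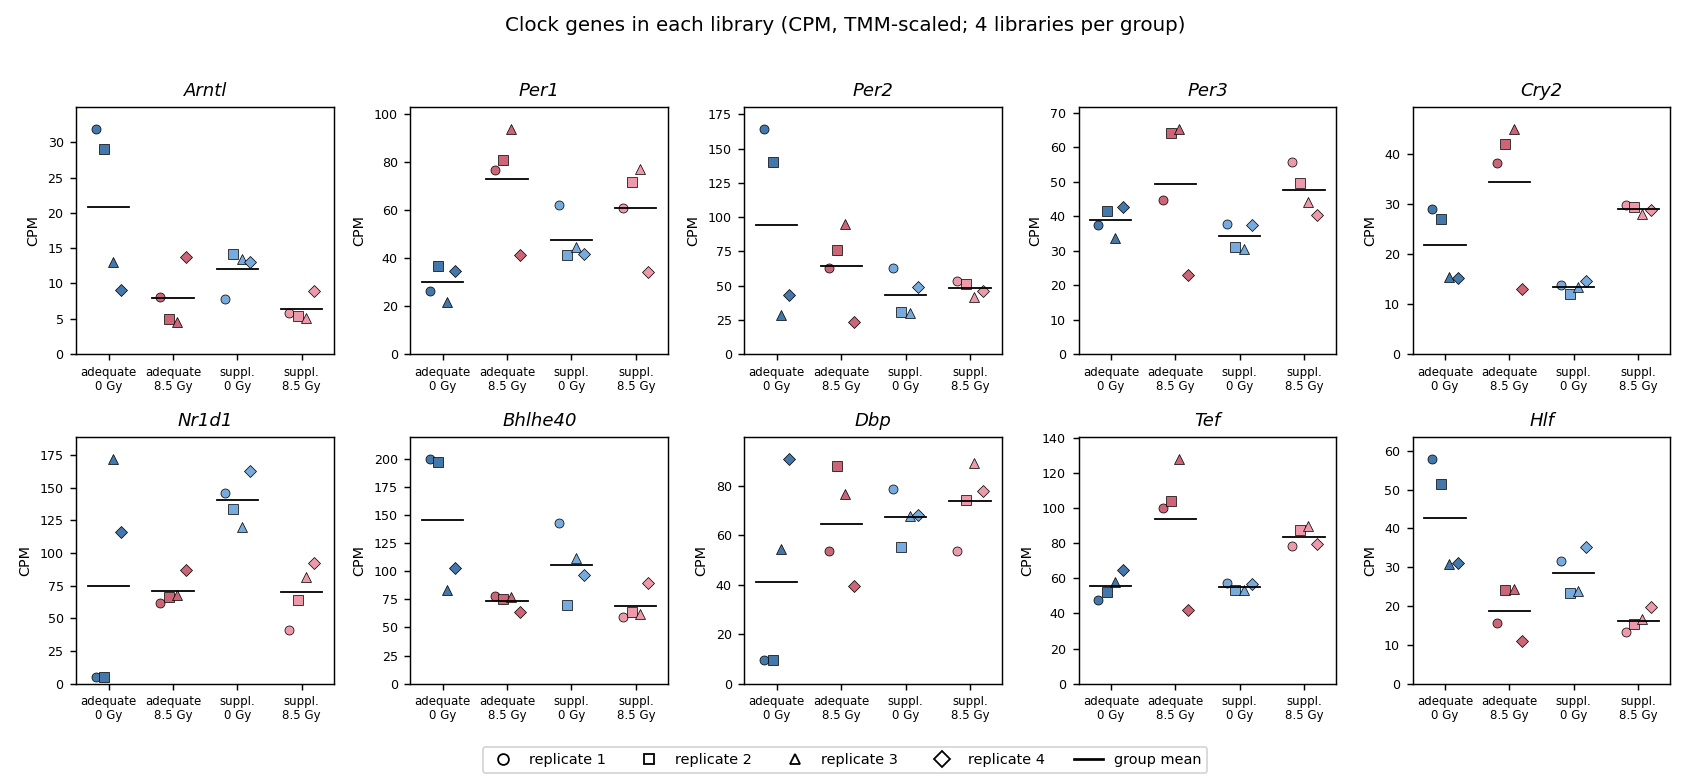
CPM of the 10 clock genes in every library, by group of diet and dose, with symbols for the replicate and a line at the group mean of 4 libraries. Cry2 and Tef are higher and Hlf is lower in all 4 irradiated supplemented libraries than in the unirradiated ones, and the unirradiated adequate group is split for Nr1d1, Dbp, Arntl, Per2 and Bhlhe40.

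The first comparison, radiation on the adequate diet, asks what 8.5 Gy changed when methionine was adequate. With all libraries the rises were those of Per1 and Tef, and the falls those of Arntl, Bhlhe40 and Hlf. These were 5 of 10 genes, where 13.7% of all 16558 genes tested were called by edgeR's quasi-likelihood test at an adjusted p under 0.05 (7.13% higher and 6.58% lower). Of the 5, the rise of Per1 was also called without unirradiated replicates 1 and 2, and the other 4 were not. Those replicates were left out after their values were seen, and Arntl, Bhlhe40 and Hlf were among the genes that set them apart. The lost calls of these genes follow in part from that choice, and fewer unirradiated libraries were left. The median log2 fold change of the 10 genes was 0.11, against 0.01 over all genes tested. The groups did not overlap for 3 of the 10, as for 19.5% of all genes. The 10 genes were chosen with earlier results of these data known, so these shares do not test for enrichment. Without the filter 3 of 10 were called where 6.02% of genes were, limma voom called 3 where 13.8% were, the fit of these 8 libraries 3 where 11.9% were, and the fit without libraries under 4 M counts 1 where 8.59% were.

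Per1, the period gene that also responds acutely to hormones, had 26.5, 36.9, 21.7 and 34.7 CPM without irradiation and 76.9, 80.9, 93.6 and 41.1 CPM with it. The groups did not overlap, and irradiated replicate 4 was the nearest to the unirradiated libraries. The mean went from 29.9 ± 7.12 to 73.1 ± 22.5 CPM (SD, n = 4 per group), a log2 fold change of 1.27 ± 0.28 (SE, edgeR adjusted p = 0.00693). It was 1.37 ± 0.36 (adjusted p = 0.0471) without unirradiated replicates 1 and 2, and 1.19 with an adjusted p = 0.053 without the 3 libraries under 4 M counts. Leaving out any single library kept the call, with values of 1.12 to 1.48.

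The other period genes were not called with all libraries. Per2 had 164, 140, 28.4 and 43.5 CPM without irradiation and 63.2, 75.9, 95.3 and 23.2 CPM with it, so the irradiated libraries lay between the 2 kinds of unirradiated library or below them. Its log2 fold change was -0.53 ± 0.52 (adjusted p = 0.538) and turned to 0.84 ± 0.45 (adjusted p = 0.309) without unirradiated replicates 1 and 2. Per3 had 33.6 to 42.6 CPM without and 23 to 65.2 CPM with irradiation (0.32 ± 0.23, adjusted p = 0.391). Cry2, the cryptochrome repressor, had 29.1, 27.1, 15.5 and 15.3 CPM without and 38.2, 41.9, 44.9 and 13 CPM with irradiation (0.68 ± 0.30, adjusted p = 0.144). It was 3 irradiated libraries that exceeded every unirradiated one, and replicate 4 that fell below them all.

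Arntl had 31.8, 29.1, 13.1 and 9.13 CPM without irradiation and 8.13, 4.98, 4.61 and 13.8 CPM with it. The groups overlapped through irradiated replicate 4. The log2 fold change was -1.28 ± 0.41 (adjusted p = 0.0482), and -0.42 ± 0.38 (adjusted p = 0.566) without unirradiated replicates 1 and 2. The call was lost in 11 of the 16 fits that left out a single library. Nr1d1, its repressor, had 61.6, 66.4, 67.6 and 87 CPM in the irradiated libraries, which lay between the 2 kinds of unirradiated library. Its log2 fold change was -0.10 ± 0.78 with all libraries (adjusted p = 0.955), 1.04 by limma voom (adjusted p = 0.444), and -1.02 ± 0.26 (adjusted p = 0.037) without replicates 1 and 2. Those replicates were set apart by their low Nr1d1, so the last value follows in part from leaving them out. Thra, which overlaps Nr1d1, was called lower with all libraries (-0.55 ± 0.17, adjusted p = 0.0393), the fit in which Nr1d1 was not called. Bhlhe40 had 200, 197, 83.7 and 103 CPM without and 63.6 to 78.3 CPM with irradiation, with no overlap (-0.98 ± 0.27, adjusted p = 0.0221). Without replicates 1 and 2 it was -0.34 ± 0.24 (adjusted p = 0.435).

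Among the PAR bZIP factors, Tef and Hlf had fold changes of opposite sign. Tef had 47.9, 52.1, 58 and 64.9 CPM without irradiation and 100, 104, 128 and 42.2 CPM with it. Irradiated replicate 4 was below all unirradiated libraries and the other 3 above them (0.74 ± 0.22, adjusted p = 0.0375, and 0.61 ± 0.29, adjusted p = 0.246, without replicates 1 and 2). Hlf had 57.9, 51.4, 30.8 and 31 CPM without irradiation and 15.6, 24.1, 24.4 and 10.9 CPM with it, with no overlap. Its log2 fold change was -1.21 ± 0.26 (adjusted p = 0.00695), and -0.76 ± 0.27 (adjusted p = 0.125) without replicates 1 and 2. Dbp had 9.59, 9.54, 54.5 and 90.7 CPM without and 39.3 to 88 CPM with irradiation (0.59 ± 0.55, adjusted p = 0.518). Within a library the log2 ratio of Tef to Hlf, which needs no scaling between libraries, was -0.27 to 1.06 in the unirradiated and 1.95 to 2.68 in the irradiated libraries, with replicate 4 at 1.95.

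Leaving out irradiated adequate replicate 4 together with unirradiated replicates 1 and 2 left 2 against 3 libraries in this comparison, and 5 of the 10 genes were called where 6.67% of all genes were. Cry2 (1.44 ± 0.12), Per1 (1.58 ± 0.32), Per2 (1.13 ± 0.31) and Tef (0.86 ± 0.14) were then higher and Nr1d1 (-1.13 ± 0.27) lower. Without replicates 1 and 2 alone, Per1 and Nr1d1 were called and 4.72% of all genes were. These libraries were left out after their values were seen, and Cry2, Tef, Per2 and Nr1d1 were among the genes that set them apart. The calls of those genes in these fits follow in part from that choice and do not test the effect of radiation. The same holds for Per1 in the fit without irradiated replicate 4. That library had the lowest Per1 of its group, at 41.1 CPM against 76.9 to 93.6 CPM. Summed Paneth cell markers were 2137 to 3136 CPM without and 6801 to 10068 CPM with irradiation on the adequate diet, and fibroblast markers 651 to 921 and 731 to 1868 CPM. Their part in these values was not tested.

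**Figure D4:**
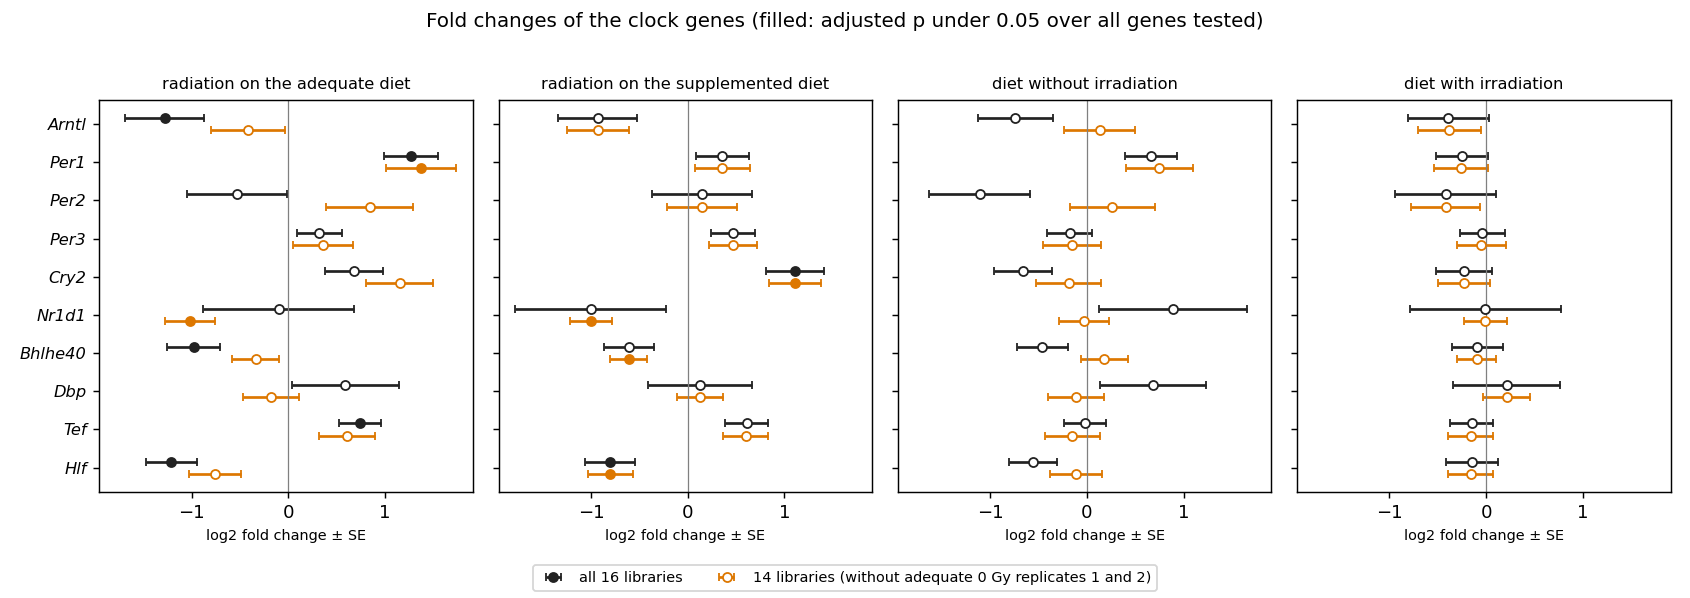
Log2 fold changes with SE of the 10 genes in 4 comparisons, with all 16 libraries (black) and without unirradiated adequate replicates 1 and 2 (orange), filled where the adjusted p was under 0.05. For radiation on the adequate diet Per2 and Dbp change sign between the fits, while the values on the supplemented diet stay in place with smaller SEs for Nr1d1, Dbp and Bhlhe40.

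Radiation on the supplemented diet does not use the adequate libraries described as apart, although they enter the shared estimate of spread. It does use irradiated supplemented replicate 4. Cry2 rose and Hlf fell, 2 of 10 genes where 15.2% of all genes tested were called (8.03% higher and 7.21% lower), and 5 of the 10 (Cry2, Hlf, Tef, Per3 and Nr1d1) had groups without overlap, as had 18.7% of all genes. The median log2 fold change was 0.14, against 0.01 over all genes. Fitted on its own 8 libraries, where 12.9% of genes were called, the comparison had 6 of 10 called: Cry2, Tef and Per3 higher and Hlf, Nr1d1 and Arntl lower. With RLE factors 1 of 10 was called where 15% of genes were, without the filter 0 where 7.06% were, and without libraries under 4 M counts 1 where 11.5% were. Without unirradiated adequate replicates 1 and 2 it was 4 where 14% were, and without irradiated adequate replicate 4 as well 7 where 16.7% were. Those libraries were left out after clock gene values were seen, a choice that lowers the shared spread of the genes that set them apart. Without irradiated supplemented replicate 4, Cry2 (1.11, adjusted p = 0.0302) and Hlf (-0.91, adjusted p = 0.0365) were the 2 called, Per1 was 0.56 (adjusted p = 0.113), Arntl -1.16 (adjusted p = 0.0876) and Bhlhe40 -0.77 (adjusted p = 0.0685). Over the 16 fits that left out a single library, 1434 to 3627 of all genes were called in this comparison.

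Cry2 had 13.8, 12, 13.5 and 14.6 CPM without irradiation and 29.9, 29.5, 28 and 28.9 CPM with it. Every irradiated library had nearly the same level, and the groups were far apart. The mean went from 13.5 ± 1.06 to 29.1 ± 0.86 CPM (SD, n = 4 per group), a 2.15-fold rise (log2 1.11 ± 0.30, adjusted p = 0.0209). Leaving out single libraries gave 1.05 to 1.15, with an adjusted p above 0.05 in 3 of the 16 fits. Tef had 57.5, 53.2, 53.1 and 56.8 CPM without and 78.6, 87.4, 89.7 and 79.5 CPM with irradiation, and the groups did not overlap. Its log2 fold change was 0.61 ± 0.22 (adjusted p = 0.0748 over 16 libraries, 0.00498 in the fit of these 8). Hlf had 31.7, 23.3, 24 and 35.3 CPM without and 13.2, 15.3, 16.6 and 19.8 CPM with irradiation, again with no overlap (-0.80 ± 0.26, adjusted p = 0.0464). Its call ended in 8 of the 16 fits without a single library, at -0.91 to -0.68. The log2 ratio of Tef to Hlf was 0.69 to 1.19 without and 2.01 to 2.57 with irradiation.

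Nr1d1 had 146, 134, 120 and 163 CPM without irradiation and 40.8, 64, 82 and 92.5 CPM with it on the supplemented diet. The groups did not overlap, and the mean went from 141 ± 18.4 to 69.8 ± 22.6 CPM, a 2-fold fall. The spread shared over all 16 libraries, which holds the split of the unirradiated adequate group, gave it a log2 fold change of -1.0 ± 0.78 (adjusted p = 0.427). Without adequate replicates 1 and 2, set apart by their low Nr1d1, it was -1.0 ± 0.22 (adjusted p = 0.00842), with a spread made smaller by that choice. With all libraries Thra was called lower (-0.65 ± 0.17, adjusted p = 0.0165), and reads of the overlap cannot be assigned here. Arntl had 7.74, 14.2, 13.4 and 13 CPM without and 5.87, 5.44, 5.1 and 8.92 CPM with irradiation, so unirradiated replicate 1 and irradiated replicate 4 made the groups overlap (-0.93 ± 0.41, adjusted p = 0.139, and 0.0305 in the fit of these 8 libraries). Both Arntl and its repressor Nr1d1 were thus lower in mean after irradiation.

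Per1, called on the adequate diet, had 62.2, 41.3, 44.7 and 41.8 CPM without and 61, 71.6, 77.2 and 34.2 CPM with irradiation on the supplemented diet. The groups overlapped (0.36 ± 0.27, adjusted p = 0.395, 95% interval -0.20 to 0.93). Per2 had 30.3 to 62.9 CPM without and 41.5 to 53.1 CPM with irradiation (0.15 ± 0.52, adjusted p = 0.882). Per3 had 37.7, 31.1, 30.5 and 37.6 CPM without and 55.8, 49.6, 44.1 and 40.5 CPM with irradiation, with no overlap (0.47 ± 0.23, adjusted p = 0.192, and 0.0404 in the fit of these 8 libraries). Bhlhe40 had 143, 69.6, 112 and 96.7 CPM without and 59.6, 64.2, 62.1 and 89.5 CPM with irradiation (-0.61 ± 0.26, adjusted p = 0.131). It was called without adequate replicates 1 and 2, themselves set apart by high Bhlhe40, at an adjusted p = 0.0499. Dbp had 55.3 to 78.8 CPM without and 53.4 to 89.1 CPM with irradiation and differed least (0.13 ± 0.54, adjusted p = 0.904). Sphk2, which overlaps Dbp, was called lower (-0.81 ± 0.20, edgeR adjusted p = 0.013), and reads of the overlap cannot be assigned here. Summed fibroblast markers were 932 to 1274 CPM without and 1279 to 1740 CPM with irradiation, and Paneth cell markers 2734 to 4675 and 8598 to 13058 CPM. Their part in these values was not tested.

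Methionine supplementation was compared at each dose. Without irradiation 0 of 10 clock genes were called by edgeR, DESeq2 or limma voom, and edgeR called 0.199% of all genes (0.169% higher and 0.0302% lower), DESeq2 1.38% and limma voom 0.308%. At an unadjusted p under 0.05 there were 3 of 10, where 11.9% of all genes were, namely Per1 (0.66 ± 0.27, adjusted p = 0.354), Hlf (-0.56 ± 0.25, adjusted p = 0.388) and Cry2 (-0.66 ± 0.30, adjusted p = 0.407). Per1 had 21.7 to 36.9 CPM on the adequate and 41.3 to 62.2 CPM on the supplemented diet with no overlap, and Cry2 15.3 to 29.1 and 12 to 14.6 CPM with no overlap, 2 of 10 genes where 9.14% of all genes had none. Without adequate replicates 1 and 2, the value of Per1 was 0.75 ± 0.35 (adjusted p = 0.803), and the other 9 genes lay between -0.19 and 0.26. The larger differences of Per2 (-1.11 ± 0.52), Nr1d1 (0.89 ± 0.77), Arntl (-0.74 ± 0.39) and Dbp (0.68 ± 0.55) with all libraries became 0.26 ± 0.44, -0.03 ± 0.26, 0.13 ± 0.37 and -0.11 ± 0.29. Those replicates were left out after their values were seen, and these genes were among those that set them apart. The smaller differences follow in part from that choice and do not show that diet had no effect.

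After irradiation 0 of 10 clock genes differed between the diets by edgeR, DESeq2 or limma voom, and 0 at an unadjusted p under 0.05. Of all 16558 genes edgeR called 0%, with 871 (5.26%) at an unadjusted p under 0.05, DESeq2 called 6 (0.0362%) and limma voom 0. Groups did not overlap for 0 of 10, against 3.14% of all genes. Log2 differences lay between -0.42 (Per2, 95% interval -1.53 to 0.70) and 0.21 (Dbp, -0.96 to 1.39). Tef, with the narrowest interval, was at -0.15 (-0.62 to 0.31). These intervals do not show that the diets acted alike.

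The diet by radiation interaction, taken as the supplemented response less the adequate one, was called by edgeR for 0 of 10 clock genes and 0% of all genes, and by DESeq2 for 0 of 10 and 2 of all genes (0.0121%). At an unadjusted p under 0.05 edgeR had 1 clock gene and 738 genes in all (4.46%). That clock gene was Per1 (-0.91 ± 0.38, adjusted p = 1), with a 95% interval of -1.72 to -0.10. The difference was -1.01 ± 0.45 without adequate replicates 1 and 2. The rise of Per1 on the adequate diet is therefore not shown to differ from its change on the supplemented diet.

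Of the 18 other clock genes, 17 were tested and 0 were called in any of the 5 comparisons by edgeR, with medians of 0.21 for radiation on the adequate diet and 0.23 on the supplemented diet. At an unadjusted p under 0.05 there were 5 of 17 with radiation on the adequate diet, where 29.4% of all genes were (Rorb, Ciart, Nr1d2 and Fbxw11 with positive and Npas2 with a negative value). On the supplemented diet there were 3 of 17, where 29.3% of all genes were, Rora (0.46 ± 0.21, adjusted p = 0.143) and Clock (0.22 ± 0.10, adjusted p = 0.14) among them. Ciart, which represses the Arntl pair, had 0.767, 1.32, 1.86 and 3.9 CPM without and 5.91, 6.22, 7.07 and 1.83 CPM with irradiation (1.25 ± 0.43, adjusted p = 0.063). Npas2, the alternative partner of Arntl, had 19.6 to 41.5 CPM without and 14.3 to 21.6 CPM with irradiation (-0.70 ± 0.29, adjusted p = 0.113). Without adequate replicates 1 and 2 and irradiated adequate replicate 4, Cry1 was at 1.16 ± 0.29 for radiation on the adequate diet. Replicates 1 and 2, both high in Cry1, were left out after its values were seen. That value follows in part from the choice and does not test the effect of radiation.

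Some pairs of clock genes also varied together among libraries of the same group. The share of such pairs over all genes was not computed, so this is not shown to be particular to clock genes. The part of depth and tissue make-up was not tested. With group means removed, 11 of 45 pairs of the 10 genes had a Pearson correlation with a permutation p under 0.05 after Benjamini-Hochberg adjustment over the 45 pairs. Arntl and Tef varied in opposite directions (r = -0.73, adjusted permutation p = 0.00135, rho = -0.83, adjusted permutation p = 0.0063, 16 libraries), and r was -0.73 without the 2 libraries farthest from the median of Arntl. Per2 and Cry2 varied together (r = 0.87, adjusted permutation p = 0.011, rho = 0.92, adjusted permutation p = 0.0063), with r = 0.92 without the 2 libraries farthest from the median of Per2. When every pair was tested without the 2 libraries farthest in its first gene, 0 of 45 passed. Without unirradiated adequate replicates 1 and 2, left out after clock gene values were seen, 19 of 45 did. For pairs with Nr1d1 the libraries fall into separate clusters and no pooled value is given.

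As a description, the genes whose group-centred levels were most like those of Arntl over 16 libraries, among named protein-coding genes with a mean log2 CPM of at least 1, were Gprasp1 (r = 0.92), Ern1 (0.88), Pdk1 (0.88), Serpinh1 (0.87) and Fermt1 (0.85). The most opposite were Ciart (-0.92), Slc5a6 (-0.91), Iffo1 (-0.91), Anxa7 (-0.87) and Flot1 (-0.86). Over the 14 libraries without adequate replicates 1 and 2 these were 0.69 to 0.89 and -0.90 to -0.75. For Dbp the likest were Lrrc75b (0.94), Tns4 (0.92), Iffo1 (0.92), Neurl3 (0.91) and Nr1d2 (0.91). Over the 14 these were 0.57, 0.86, 0.79, 0.59 and 0.46. The most opposite to Dbp were Fermt1 (-0.93), Acaca (-0.92), Rpl27a (-0.91), Ube2n (-0.91) and Ern1 (-0.89), which over the 14 were -0.91, -0.69, -0.84, -0.72 and -0.68. Among the likest of Per1 were Fam222b and Ddit4 (0.81 each) and Vkorc1l1 and Mgst1 (0.79 each), and the most opposite Arrb1 (-0.88), Uhmk1 (-0.86), Tlr3 (-0.85), Gtpbp1 (-0.85) and Scly (-0.84). Libraries share depth and tissue make-up in these values.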

How the data were processed

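RNA was measured in 16 proximal jejunum libraries, 4 per group of diet and dose. Bowtie2 2.2.9, RSEM 1.3.0, edgeR 3.2.4 and the build NCBIM37 are named, with no roles, per the submitters' processing notes. Libraries followed a small RNA protocol on fragmented RNA depleted of ribosomal RNA, per the labels' protocols. The deposited values used are RSEM expected counts, which share ambiguous reads among genes and were rounded to whole numbers. The authors' TPM and FPKM columns were not used, and the deposited gene lengths served for levels per kilobase. Symbols came from GENCODE M21 (32897 of 37620 identifiers matched), and promoter windows from RefSeq on GRCm38.p6, a later build than the files', so they describe sequence alone.

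Genes passing filterByExpr were fitted with edgeR 4.0.16 in R 4.3.3 over all 16 libraries (TMM scaling, 1 mean per group, robust quasi-likelihood F test, two-sided). The adjustment of p-values (Benjamini-Hochberg) ran over 16558 genes, with calls under 0.05. CPM are TMM-scaled and log2 CPM used a prior count of 2. Correlations of group-centred values used 100000 permutations within groups. Alternatives were RLE and upper quartile factors, no filter, limma 3.58.1 voom, DESeq2 1.42.0, fits of the 2 groups alone, and libraries left out. The fits without unirradiated adequate replicates 1 and 2, and also without irradiated adequate replicate 4, were added after the data were seen. No pair of libraries within a group had a chi-square per degree of freedom under 10.4, so no library was a copy of another in its group. Pairs of libraries from different groups were not compared in this way. The members and lists were chosen with earlier results of these data known. Named genes are the 10 members, listed genes that were called, and the 5 likest and 5 most opposite genes of Arntl, Dbp and Per1. Partner genes shown by library, glucocorticoid targets that were not called, and genes named at an unadjusted p were chosen after their values were seen. Some genes that these rules name are not reported here.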

Additional observations from a re-analysis of the deposited data

Results flagged for a closer look

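Of 40 sets of 4 libraries (10 genes in 4 groups), 2 had a library farther from the rest than Dixon's 95% critical value, and chance alone gives about 1 in 20. Per1 was highest in unirradiated supplemented replicate 1, at 62.2 CPM against 41.3 to 44.7 CPM in the other 3 libraries. Bhlhe40 was highest in irradiated supplemented replicate 4, at 89.5 CPM against 59.6 to 64.2 CPM. The split of the unirradiated adequate group into 2 and 2 libraries cannot be found by that rule, which looks for a single library.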

How the results depend on the processing

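No paired analysis was possible because the labels carry no replicate numbers and those used here follow deposit order. Of 1240 refits of the members' log2 fold changes, 1115 kept direction and call, 53 lost a call, 18 gained one and 54 changed sign. The cause of each change below was not tested unless fewer libraries or genes entered. Counts of clock genes called for radiation were 1 (supplemented diet) with RLE factors, 3 (adequate) and 0 (supplemented) without the filter, 3 (adequate) by limma voom, 3 (adequate) and 6 (supplemented) in fits of 2 groups, and 1 on each diet without libraries under 4 M counts. For diet without irradiation the genes called were 51 by limma voom, 229 by DESeq2, 139 in the fit of 2 groups and 0 without libraries under 4 M counts. DESeq2 called 6 genes for diet with irradiation and 2 for the interaction, and 1438 genes were called for radiation on the adequate diet without the libraries under 4 M counts. Signs changed without the filter for Tef (0.00, diet without irradiation) and Nr1d1 (0.00, diet with irradiation), and by limma voom for Nr1d1 (1.04, radiation, adequate) and Per3 (0.08, diet with irradiation). Without libraries under 4 M counts they changed for Hlf (0.02), Nr1d1 (0.14) and Per3 (0.02) in diet with irradiation and for Tef (0.00) and Dbp (0.12) in the interaction.

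Without unirradiated adequate replicates 1 and 2, chosen after seeing the data, 811 genes and 2 clock genes were called for radiation on the adequate diet, 4 clock genes on the supplemented diet and 0 genes for diet without irradiation. Signs changed for Per2 (0.84) and Dbp (-0.18) in radiation on the adequate diet. For diet without irradiation they changed for Nr1d1 (-0.03), Bhlhe40 (0.18), Arntl (0.13), Per2 (0.26) and Dbp (-0.11). In the interaction they changed for Hlf (-0.04), Nr1d1 (0.02), Bhlhe40 (-0.27), Arntl (-0.51), Per2 (-0.69), Dbp (0.32) and Cry2 (-0.04). Without irradiated adequate replicate 4 as well, the counts were 1139 genes for radiation on the adequate diet, 7 clock genes on the supplemented diet, 10 genes for diet without and 1 for diet with irradiation. Signs then changed for Per2 (1.13) and Dbp (-0.00) in radiation on the adequate diet, and the same 5 values as above stood for diet without irradiation. They also changed for Nr1d1 (0.11) and Arntl (0.06) in diet with irradiation, and in the interaction for Hlf (-0.25), Nr1d1 (0.14), Per3 (-0.14), Bhlhe40 (-0.34), Arntl (-0.07), Per2 (-0.98), Dbp (0.14) and Cry2 (-0.34).

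Leaving out each library in turn gave 1231 to 2787 genes and 2 to 6 clock genes for radiation on the adequate diet, 1434 to 3627 and 0 to 4 on the supplemented diet, 0 to 118 genes for diet without irradiation, 0 to 1 with irradiation and 0 to 2 for the interaction. Signs changed for Nr1d1 (-0.49 to 0.70) in radiation on the adequate diet and Tef (-0.08 to 0.06) in diet without irradiation. In diet with irradiation they changed for Hlf (-0.36 to 0.05), Nr1d1 (-0.17 to 0.17), Tef (-0.40 to 0.04), Per3 (-0.29 to 0.15) and Arntl (-0.62 to 0.06), and in the interaction for Tef (-0.38 to 0.06) and Per3 (-0.11 to 0.33). Of 45 pairs tested for correlation 11 passed, 0 without the 2 farthest libraries and 19 without adequate replicates 1 and 2. Those replicates were chosen after the values were seen. The lowest counts were those of Arntl in irradiated adequate replicate 2 (12) and irradiated supplemented replicate 1 (20), and of Nr1d1 (13) and Dbp (25) in unirradiated adequate replicate 1, all libraries under 4 M counts. With 4 libraries per group the precision is limited.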

Other observations

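Per1 and Tsc22d3 are textbook targets of the glucocorticoid receptor, and a list of 12 such genes was fitted beside the clock genes. With radiation on the adequate diet 3 of 12 were called higher and 0 lower (median log2 fold change 0.59, where 7.13% of all genes were called higher), namely Klf9 (0.79 ± 0.17, edgeR adjusted p = 0.0056), Cebpd (1.25 ± 0.29) and Zbtb16 (1.93 ± 0.58). On the supplemented diet Zbtb16 (1.92 ± 0.57) and Nfkbia (0.63 ± 0.20) were higher, 2 of 12 with a median of 0.54, where 8.03% of all genes were called higher. Fkbp5, a sensitive target of the receptor, had 65.6, 42.7, 7.42 and 6.85 CPM in unirradiated adequate replicates 1 to 4, so it was high in the same 2 libraries as Arntl. Tsc22d3 had 110, 91, 43.2 and 43.4 CPM there. Neither gene was called in any comparison, and both are named after their values were seen. Of the rest of the list, Sgk1, Zbtb16, Ddit4, Mt1 and Nfkbia were also higher in replicates 1 and 2 than in replicates 3 and 4. Klf9 was lower in replicates 1 and 2, and Cebpd, Mt2, Dusp1 and Errfi1 did not separate the 2 pairs. In irradiated adequate libraries Fkbp5 had 70, 49.8, 169 and 13.7 CPM.

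Of 12 immediate early genes, which respond to stimuli within minutes, 6 were lower with radiation on the supplemented diet (median -1.07, where 7.21% of all genes were called lower): Egr1 (-2.60 ± 0.66, edgeR adjusted p = 0.0182), Nr4a1 (-1.68 ± 0.53), Atf3 (-1.46 ± 0.35), Ier2 (-1.30 ± 0.30), Junb (-1.0 ± 0.26) and Sik1 (-0.61 ± 0.19). On the adequate diet 0 of 12 were called by edgeR, with 1 (Egr2) at an unadjusted p under 0.05. The interaction was called for 0 of 12, with 10 of 12 at an unadjusted p under 0.05, where 4.46% of all genes were, and a median of -1.41. For diet without irradiation 0 of 12 were called, and all 12 values were positive with a median of 0.91. The unirradiated supplemented libraries were uneven. Egr1 had 52.8, 16.2, 68.2 and 157 CPM there and 13.8, 14, 12.9 and 8.34 CPM after irradiation. Ier2 had 34.8, 22.4, 43 and 83.7 CPM there and 20, 18.4, 18.1 and 18.8 CPM after irradiation. Unirradiated supplemented replicate 4 was the highest and replicate 2 the lowest of the group for both genes. Among 13 genes that the clock is known to time, the peptide transporter Slc15a1 (1.44 ± 0.43) and Coq10b (0.61 ± 0.19) were higher with radiation on the adequate diet, 2 of 13 where 7.13% of all genes were called higher. The sugar transporter Slc2a2 (-1.30 ± 0.42) was lower on the supplemented diet, 1 of 13 where 7.21% of all genes were called lower. Slc15a1 had 163 CPM in irradiated adequate replicate 4, below all 4 unirradiated adequate libraries (238 to 298 CPM). Slc2a2 had 571 CPM in irradiated supplemented replicate 4, inside the unirradiated range of 513 to 726 CPM.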
